A study of Mus musculus and Rattus norvegicus with 30 samples.

Results

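Toll-like receptors are innate immune receptors that sense molecules of microbes and of damaged cells. The genes described here are Tlr1 to Tlr9 and Cd14, the co-receptor that hands lipopolysaccharide to TLR4, in the dorsal root ganglion (DRG), the cluster of sensory neuron cell bodies beside the spinal cord. They were chosen by gene symbol. All 10 were found in the mouse count table of 54315 features and in the rat count table of 39281 features. All 10 had counts in mouse. In rat 5 had counts, and Tlr1, Tlr3, Tlr5, Tlr6 and Cd14 were listed at 0 in all 8 libraries.

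Mouse DRG came from 2 strains, BALB/c and B10.D2, bought at 4 to 8 weeks of age, with both sexes in each group. SNI (spared nerve injury) mice lost the common peroneal and sural branches of the sciatic nerve to transection and kept the tibial branch. In sham mice the branches were exposed only. Each library held the L3 and L4 DRG of 1 mouse taken on day 28, with ribosomal RNA removed: 6 BALB/c sham (3 female), 4 BALB/c SNI (2 female), 5 B10.D2 sham (2 female) and 5 B10.D2 SNI (3 female). Rat libraries held polyadenylated RNA from L5 DRG of male Wistar rats on day 21, 3 animals pooled in each, with 4 libraries after spinal nerve transection (SNT, the L5 nerve ligated and cut) and 4 after sham surgery in which the nerve was exposed. No label names a transgene or a drug. L3 and L4 DRG also hold neurons whose axons run in the spared branch, so the mouse samples mix cut and uncut neurons.

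The family divides by place and by ligand. TLR1, TLR2, TLR4, TLR5 and TLR6 sit at the cell surface: TLR2 pairs with TLR1 or with TLR6 to bind bacterial lipopeptides, TLR4 with MD-2 (gene Ly96) binds lipopolysaccharide, and TLR5 binds flagellin. TLR3, TLR7, TLR8 and TLR9 sit in endosomes and bind nucleic acids, and they need the chaperone UNC93B1 to get there. Signals run through the adaptors MyD88 and TRIF (Ticam1) to NF-kB and interferon regulatory factors. In the DRG, macrophages are a known source of these receptors, and sensory neurons and glia have been reported to carry some of them.

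Total counts per library ran from 29989963 to 41881331 in mouse and from 11954612 to 17887909 in rat. All 10 DRG neuron markers had counts in mouse. In rat, 3 of the 10 were listed at 0 in every library (Nefh, Tubb3, Uchl1), as were the Schwann cell genes Mbp and Pmp22, so a listing at 0 in rat says nothing about expression. The markers of cut sensory neurons were higher after injury, 7 of 7 in BALB/c, 6 of 7 in B10.D2 and 4 of 4 tested in rat. No pair of libraries within a group differed by as little as counting noise. Levels below are in CPM, a gene's count per 1000000 counts of its library after scaling by edgeR's TMM factor. A call means an adjusted p under 0.05 in edgeR's quasi-likelihood test over all features. Each mouse library is 1 animal, and each rat library is a pool.

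Tlr1 and Tlr6 carried the largest strain differences among the members, and they are neighbours on mouse chromosome 5. In mm10 (GRCm38), Tlr1 (ENSMUSG00000044827) lies at 64924679 to 64933563 and Tlr6 (ENSMUSG00000051498) at 64952031 to 64960097, both protein coding and on the minus strand. Parts of their coding exons are nearly identical. Over 595 bases (64925291 to 64925885 in Tlr1, 64953582 to 64954176 in Tlr6) the reference differed at 3 positions, so it was 99.5% identical. The next lines show 300 bases of that stretch in each gene, 5′ to 3′ on the coding strand, with the 3 differing bases in capitals, because a read that lies inside an identical run fits both genes.
Tlr1, chr5:64925482-64925781: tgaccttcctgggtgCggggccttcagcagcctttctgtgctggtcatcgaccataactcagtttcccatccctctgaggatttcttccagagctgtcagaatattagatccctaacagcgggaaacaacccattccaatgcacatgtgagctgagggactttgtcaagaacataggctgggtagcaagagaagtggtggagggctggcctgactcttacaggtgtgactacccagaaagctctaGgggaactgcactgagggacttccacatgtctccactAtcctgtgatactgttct
Tlr6, chr5:64953773-64954072: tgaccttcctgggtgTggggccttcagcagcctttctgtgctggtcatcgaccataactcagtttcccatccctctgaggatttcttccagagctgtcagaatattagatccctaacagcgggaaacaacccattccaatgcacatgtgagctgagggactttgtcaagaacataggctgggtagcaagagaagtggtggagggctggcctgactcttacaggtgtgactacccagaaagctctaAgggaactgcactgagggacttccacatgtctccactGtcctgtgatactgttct
Of all 100-base windows in annotated transcripts, 7.89% of those of Tlr1 and 7.09% of those of Tlr6 were shared, each with the other gene only. The other 8 members shared none with any gene. Reads were 100 bases long and sequenced in pairs, so these shares are of windows of single-read length. A pair can reach beyond an identical run, and the share of pairs that fit both genes was not measured.

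RefSeq windows (GRCm38.p6, 250 bases before to 50 after the start) were held for 7 of the 10 members, and Tlr1 and Tlr6 each have a second window at an inner start. Those of Tlr1 and Tlr6 that lie at the outermost start are shown because the 2 genes differed together between the strains. That of Tlr2 is shown because Tlr2 was the member called after SNI. Capitals mark every match, on either strand, to the core GAGGAA of PU.1 (a macrophage factor), to AP-1 (TGANTCA), to the ISRE (bound by interferon regulatory factors) or to the NF-kB motif.
Tlr1, chr5:64933509-64933808, minus strand: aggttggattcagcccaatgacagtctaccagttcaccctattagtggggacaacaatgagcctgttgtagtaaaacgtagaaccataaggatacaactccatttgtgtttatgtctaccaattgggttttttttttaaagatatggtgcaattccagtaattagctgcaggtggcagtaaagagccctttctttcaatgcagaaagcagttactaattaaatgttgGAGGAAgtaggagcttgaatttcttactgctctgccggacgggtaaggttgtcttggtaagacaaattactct
Tlr6, chr5:64959999-64960298, minus strand: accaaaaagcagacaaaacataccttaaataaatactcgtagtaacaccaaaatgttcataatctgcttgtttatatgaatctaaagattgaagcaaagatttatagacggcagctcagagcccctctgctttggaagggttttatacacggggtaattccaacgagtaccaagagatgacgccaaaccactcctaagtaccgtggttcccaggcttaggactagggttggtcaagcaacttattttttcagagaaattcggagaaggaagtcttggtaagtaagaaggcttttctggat
Tlr2, chr3:83841559-83841858, minus strand: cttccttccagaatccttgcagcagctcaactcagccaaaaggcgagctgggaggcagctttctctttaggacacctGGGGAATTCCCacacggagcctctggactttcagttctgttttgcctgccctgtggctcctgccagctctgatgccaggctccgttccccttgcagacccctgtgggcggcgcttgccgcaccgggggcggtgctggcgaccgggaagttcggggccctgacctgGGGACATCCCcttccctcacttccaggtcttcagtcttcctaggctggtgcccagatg
The Tlr1 window held 1 PU.1 core, which 28.3% of all 32851 promoter windows hold. The Tlr6 window held none of the 4 motifs, while the one at its inner start (64959117 to 64959416, not shown) held 2 ISRE matches. In Tlr2 there were 5 matches to NF-kB, which overlap each other at bases 78 and 79 of the window and read on both strands at base 243, and 8.46% of all windows hold that motif. AP-1 and ISRE were in 7.81% and 3.44% of all windows and in none of these 3. Of the windows not shown, that of Tlr3, which was not called after SNI, also held 1 NF-kB match. Those of Tlr5, Tlr8 and Tlr9 held 0. A match is only a description of the letters.

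The other receptors lie apart from each other, save Tlr7 and Tlr8, and all are protein coding. In GRCm38, Tlr4 lies on chromosome 4 at 66827584 to 66930284 and Tlr5 on chromosome 1 at 182954788 to 182976044, both on the plus strand. Tlr2 lies on chromosome 3 at 83836272 to 83841767 and Tlr3 on chromosome 8 at 45395665 to 45411080, both on the minus strand. Tlr9 is on chromosome 9 at 106222598 to 106226883, plus strand. Tlr8 (167242696 to 167264329) and Tlr7 (167304929 to 167330558) are neighbours on the minus strand of chromosome X. One annotated gene overlapped a member, the antisense Gm45542 over Tlr3, with a mean of 0.5 counts a library.

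Tlr4 had the highest mean level per length in all 4 mouse groups. In BALB/c sham its level was 3.69 ± 0.204 CPM per kilobase of merged exon (SD, n = 6), followed by Tlr1 at 2.44 ± 0.283, Cd14 at 1.55 ± 0.380, Tlr3 at 1.44 ± 0.148 and Tlr6 at 1.13 ± 0.190. Lower still were Tlr2 at 0.725 ± 0.215, Tlr7 at 0.608 ± 0.214, Tlr5 at 0.475 ± 0.0857 and Tlr8 at 0.458 ± 0.190. The DNA sensor Tlr9 was lowest, at 0.156 ± 0.0672. Tlr4 stood clear of the next member over the libraries. The other neighbouring pairs in this order overlapped, from Tlr1 (lowest library 2.08) and Cd14 (highest 2.19) downwards. In BALB/c SNI, Tlr4 (lowest library 3.27) and Tlr1 (highest 3.45) overlapped too.

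The order was different in B10.D2. In B10.D2 sham, Tlr4 (2.63 ± 0.264 CPM per kilobase, SD, n = 5) was followed by Tlr3 (1.53 ± 0.159), Cd14 (1.46 ± 0.369) and Tlr2 (1.02 ± 0.124). Tlr1 was in place 8 at 0.578 ± 0.0912 and Tlr6 in place 9 at 0.293 ± 0.0456, where they had been in places 2 and 5 in BALB/c. Neighbours did not overlap between Tlr4 and Tlr3, between Tlr2 and Tlr7 and between Tlr1 and Tlr6. After SNI the places of Tlr1 and Tlr6 were the same, 2 and 5 in BALB/c and 8 and 9 in B10.D2. The plot of levels per length shows the 4 orders.

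**Figure D1:**
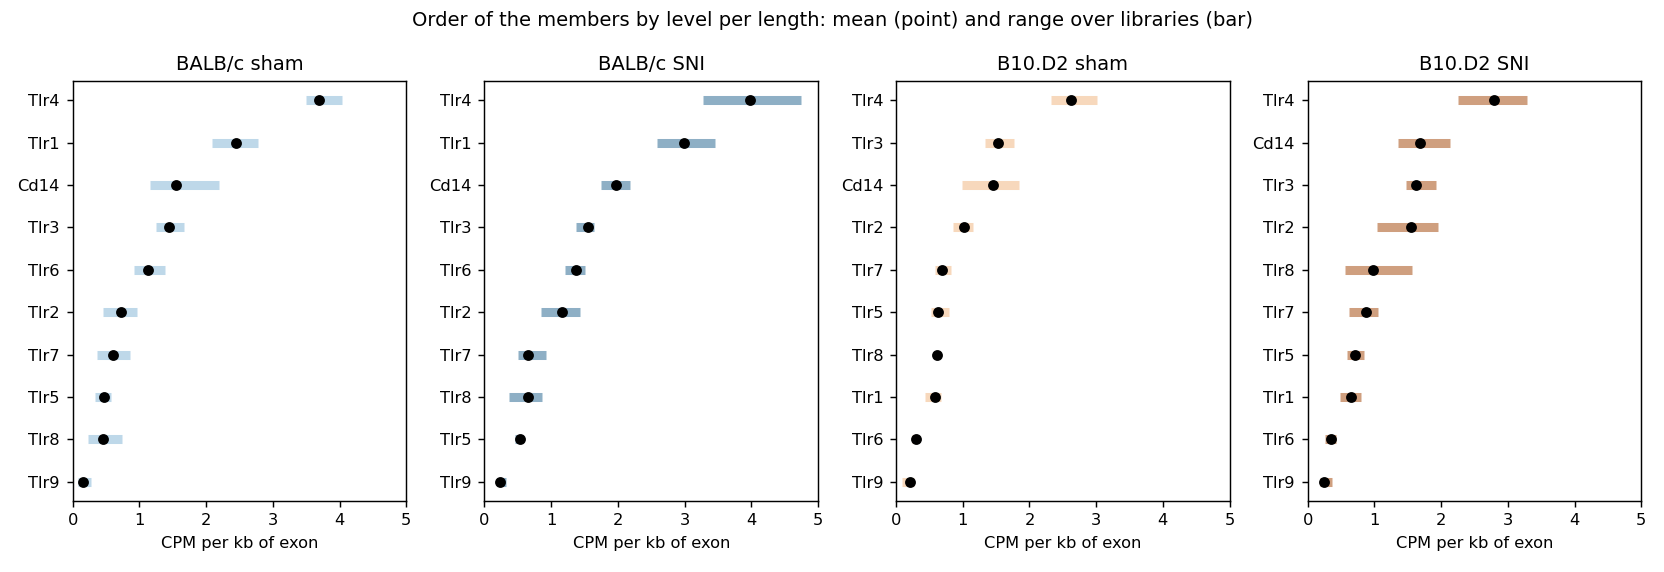
Members in order of their level in each mouse group, in CPM per kilobase of merged exon (x axis); points are means and bars run from the lowest to the highest library (n = 6, 4, 5 and 5 from left to right). Tlr4 has the highest mean in each group, and Tlr1 drops from place 2 in BALB/c to place 8 in B10.D2.

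The strain comparison asked which members differ between mice that differ in pain behaviour after nerve injury. In sham mice, 3 of the 10 members were lower and 1 was higher in B10.D2 than in BALB/c. Over all 24685 features tested, 21.6% were called. Tlr1 was 4.16-fold lower, Tlr6 3.85-fold lower and the lipopolysaccharide receptor Tlr4 1.39-fold lower, while the flagellin receptor Tlr5 was 1.31-fold higher. The median log2 difference over the 10 members was 0.15, against -0.01 over all features.

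Tlr1, the partner of TLR2 for triacylated lipopeptides, had in BALB/c sham 6.97 CPM in the lowest, 8.04 in the median and 9.27 in the highest library. In B10.D2 sham the libraries had 1.48, 1.79, 2.05, 2.10 and 2.26 CPM. Every B10.D2 library was below every BALB/c library, and the counts behind them were 49 to 83 against 258 to 384. The log2 difference was -2.06 (SE 0.110, adjusted p = 5.34e-12). Over the 11 fits that left out 1 sham library each it stayed between -2.10 and -1.996 and was called in each.

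Tlr6, the partner of TLR2 for diacylated lipopeptides, showed the same order of groups. BALB/c sham libraries ran from 3.43 through a median of 4.17 to 5.14 CPM. The 5 B10.D2 sham libraries had 0.869, 1.01, 1.06, 1.26 and 1.27 CPM. The groups did not overlap, with 36 to 43 counts in B10.D2 against 115 to 203 in BALB/c. The log2 difference was -1.95 (SE 0.147, adjusted p = 1.69e-09), and leaving out any sham library kept it between -2.01 and -1.86.

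Tlr4 differed less but also without overlap. The lowest, median and highest BALB/c sham libraries had 19.5, 20.2 and 22.4 CPM. In B10.D2 sham they were 13.0, 13.8, 14.2, 15.4 and 16.7 CPM. So the highest B10.D2 library was below the lowest BALB/c library. The log2 difference was -0.47 (SE 0.0813, adjusted p = 0.000156), between -0.51 and -0.42 when any sham library was left out.

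**Figure D2:**
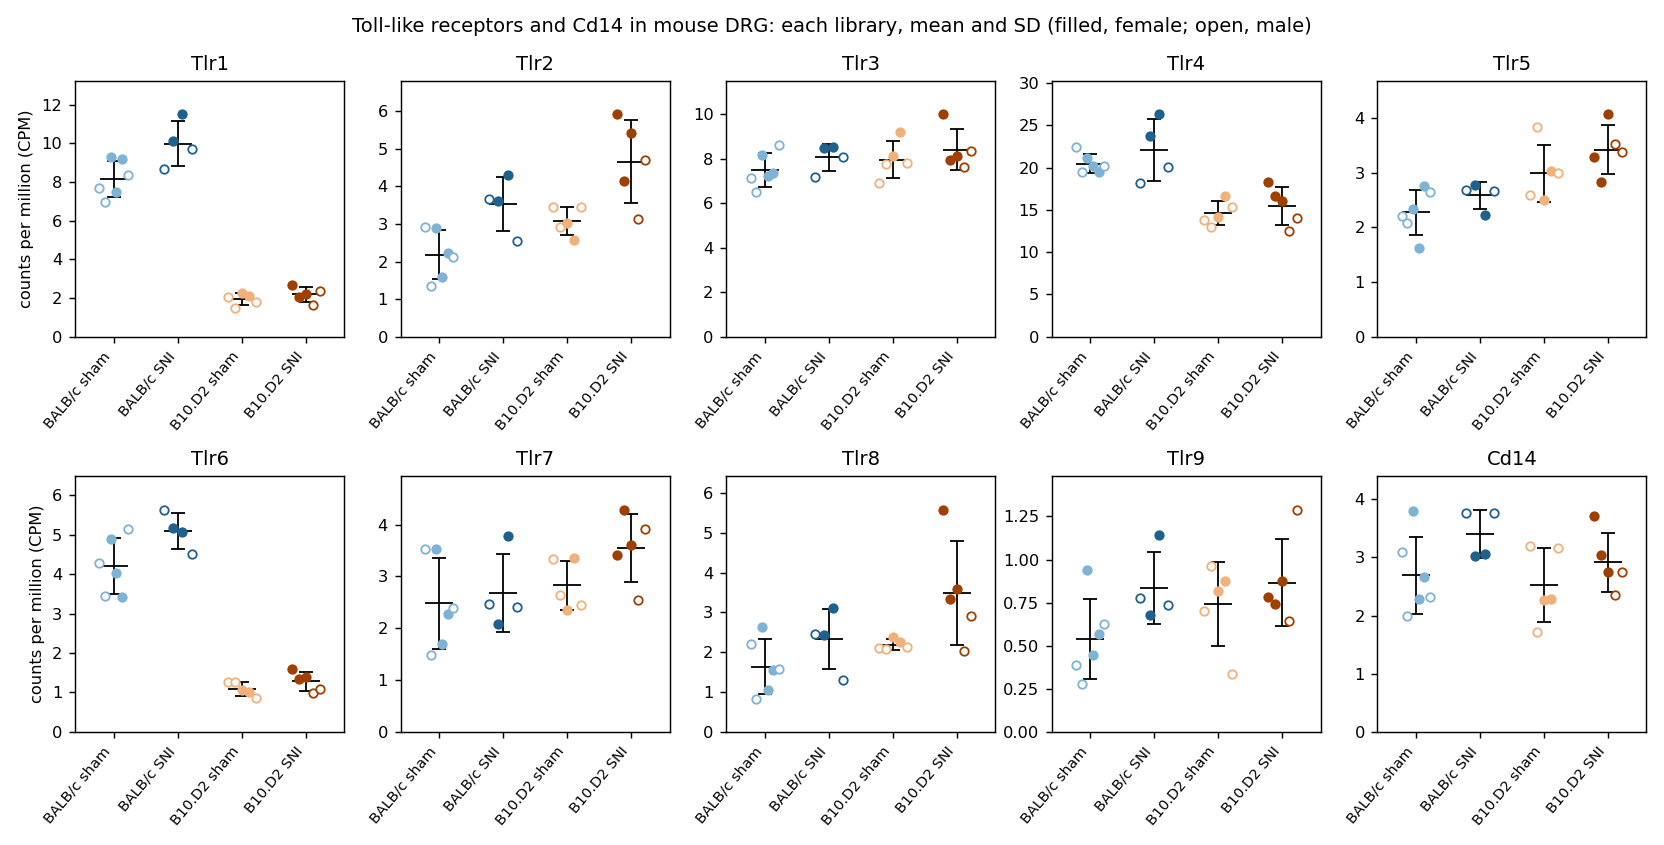
Levels of the 10 members in every mouse library, in CPM (y axis, from 0), by strain and surgery; filled points are female, open points male, and black bars give mean ± SD. Tlr1, Tlr4 and Tlr6 are lower in all 5 B10.D2 sham libraries than in any of the 6 BALB/c sham libraries.

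Tlr5 was near the threshold. BALB/c sham libraries had 1.62 at the lowest, 2.27 at the median and 2.75 at the highest, and B10.D2 sham libraries had 2.50, 2.60, 2.99, 3.03 and 3.83 CPM. The groups overlapped. The log2 difference was 0.39 (SE 0.137, adjusted p = 0.0486), and it was called in 4 of the 11 fits that left out a library. It was lost without BALB/c sham replicates 50 (adjusted p = 0.0835), 51 (0.104), 55 (0.0557) or 56 (0.102), and without B10.D2 sham replicates 60 (0.153), 77 (0.0936) or 88 (0.0746). With no filter on low counts its adjusted p was 0.0681.

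The other 6 members were not called between the strains in sham mice. Tlr2 had a log2 difference of 0.52 (SE 0.193, adjusted p = 0.0604), with 2.18 ± 0.648 CPM in BALB/c (SD, n = 6) and 3.08 ± 0.371 CPM in B10.D2 (SD, n = 5). It was called by DESeq2 (adjusted p = 0.0444), with no filter on low counts (0.0356), and without BALB/c sham replicate 50 (0.0172) or 55 (0.0359) or B10.D2 sham replicate 77 (0.0357). The endosomal receptors Tlr3, Tlr7, Tlr8 and Tlr9 had log2 differences of 0.10, 0.20, 0.46 and 0.46, with adjusted p from 0.21 to 0.579. For Cd14 it was -0.09 (SE 0.178, adjusted p = 0.793).

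After SNI the same 3 members were lower in B10.D2, and none was higher, where 20.8% of all features were called. Tlr1 had 8.66, 9.70, 10.1 and 11.5 CPM in the BALB/c SNI libraries and 1.63, 2.04, 2.23, 2.35 and 2.68 in those of B10.D2. The groups were apart, with a log2 difference of -2.21 (SE 0.115, adjusted p = 4.63e-12). Tlr6 had 4.51, 5.08, 5.17 and 5.64 CPM in BALB/c against 0.990, 1.09, 1.35, 1.38 and 1.59 in B10.D2, also apart, with a log2 difference of -1.996 (SE 0.153, adjusted p = 2.82e-09). These are 4.64-fold and 3.99-fold lower levels in B10.D2. Both were called in all 9 fits that left out an SNI library.

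Tlr4 after SNI had 18.2, 20.1, 23.8 and 26.3 CPM in BALB/c and 12.5, 14.0, 16.0, 16.6 and 18.3 in B10.D2. The groups touched, since the highest B10.D2 library passed the lowest BALB/c library. The log2 difference was -0.53 (SE 0.0887, adjusted p = 0.000129) and was called in all 9 fits without an SNI library. Tlr5 had 2.23, 2.67, 2.69 and 2.78 CPM in BALB/c and 2.83, 3.29, 3.39, 3.53 and 4.07 in B10.D2. These 2 groups did not overlap, yet the log2 difference of 0.41 (SE 0.150) had an adjusted p of 0.0567. It was called by DESeq2 (adjusted p = 0.0496) and without B10.D2 SNI replicate 76 (0.042). The remaining 6 members had adjusted p from 0.166 (Tlr8, log2 difference 0.54) to 0.948 (Tlr9, 0.04).

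**Figure D3:**
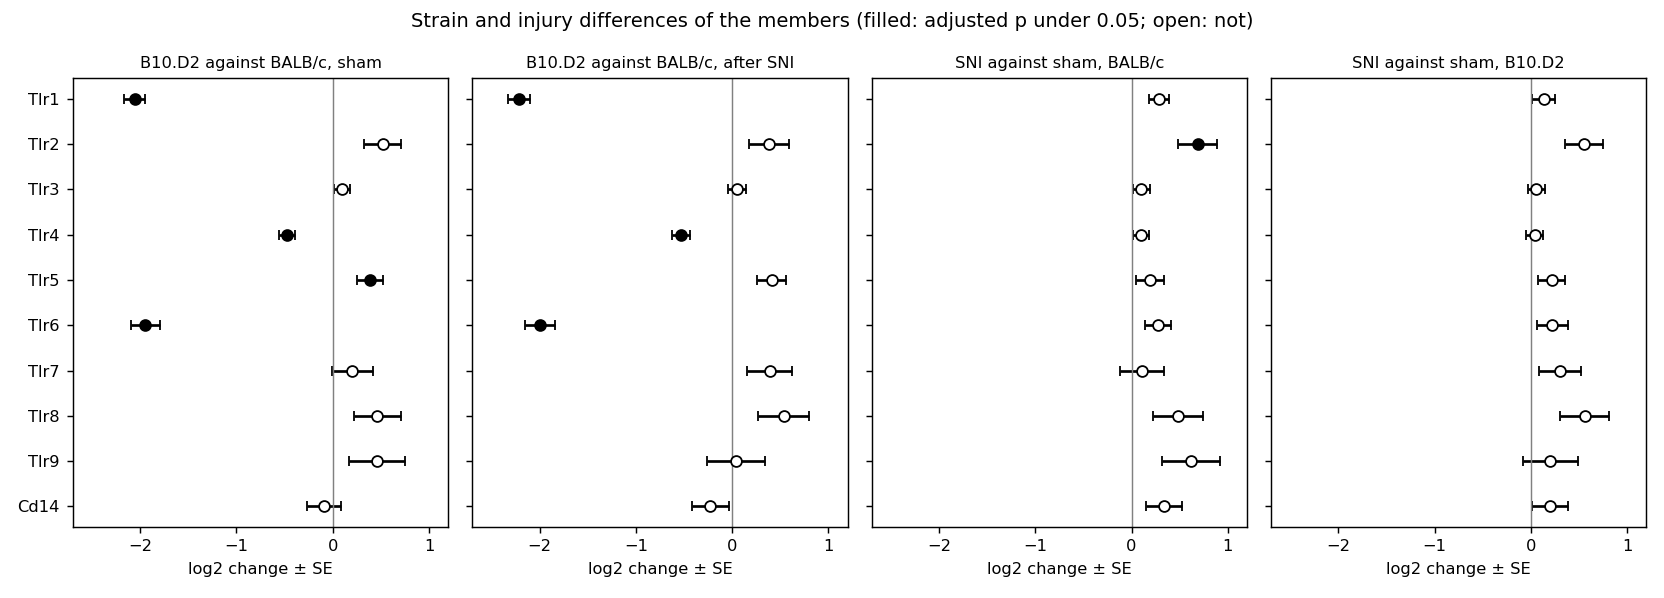
Log2 differences ± SE of the 10 members (x axis, the same range in each panel) for the strain comparison in sham and after SNI and for SNI against sham in each strain; filled points have an adjusted p under 0.05. Tlr1 and Tlr6 lie near -2 in both strain panels, and Tlr2 is the filled point among the injury panels.

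The strain difference of Tlr1 and Tlr6 was set beside the genes around them. Within 500 kb of either gene, 19 other genes were tested in sham mice, and 1 was lower, 0 were higher and 18 were not called. The nearest tested genes on either side, Klf3 and Fam114a1, had log2 differences of -0.01 (SE 0.067) and -0.003 (SE 0.0621). Gm3716, a long intergenic noncoding RNA 313979 bases from Tlr1, was the gene called (-2.597, SE 0.189, adjusted p = 9.49e-10). Klb, a co-receptor for fibroblast growth factors, had -1.02 (SE 0.388, adjusted p = 0.0675). These 4 genes were named after their values were seen. An assembled LncRNA of the study on the same strand, LncRNA4919 (64956600 to 64968812), overlaps the 5′ part of Tlr6. It had a mean of 0.285 CPM and a log2 strain difference of -0.11 (SE 0.314, adjusted p = 0.862).

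**Figure D4:**
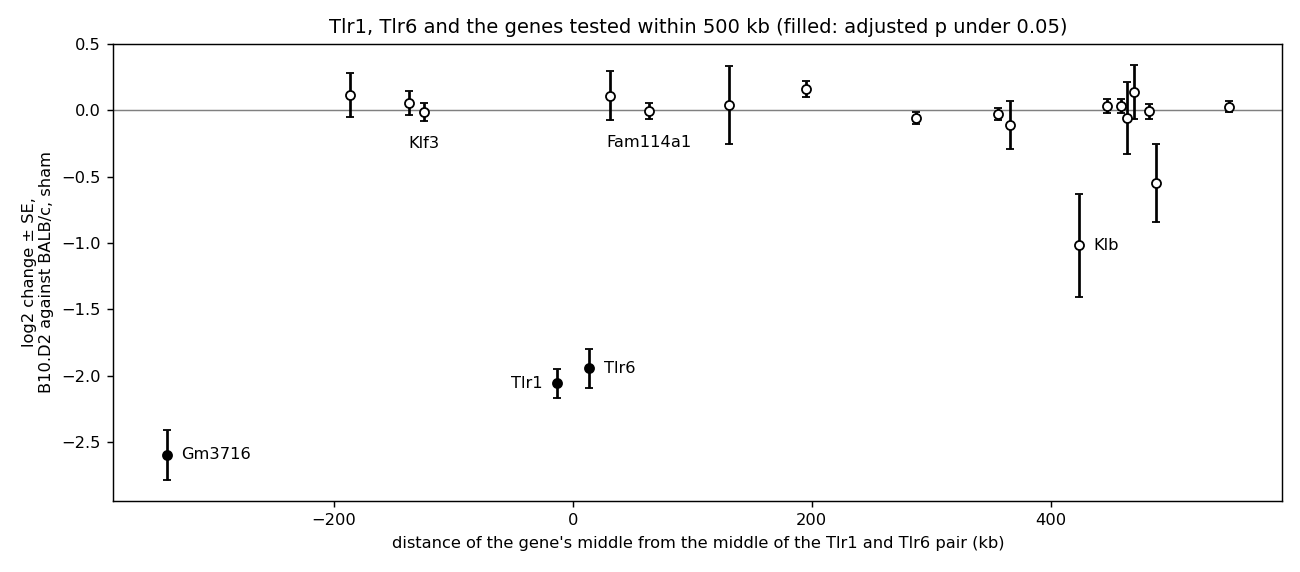
Log2 difference ± SE between the strains in sham mice (y axis) for Tlr1, Tlr6 and the 19 other genes tested within 500 kb of either, against the distance of each gene's middle from the middle of the pair in kb (x axis). Filled points have an adjusted p under 0.05; 18 of the 19 other genes are open.

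Cell type markers were measured in the same libraries. The summed level of 10 macrophage markers was 130.7 to 308.9 CPM in BALB/c sham and 235.1 to 266.2 CPM in B10.D2 sham, with 3 of 10 markers called higher and 0 lower in B10.D2. After SNI it was 261.8 to 381.9 CPM in BALB/c and 240.1 to 404.5 CPM in B10.D2. The medians of the sums were 180.6 CPM in BALB/c sham and 243.7 CPM in B10.D2 sham. The 6 neutrophil markers summed to 25.3 to 189 CPM in BALB/c sham and 14.0 to 51.3 in B10.D2 sham, 2 of 6 called lower, and to 51.3 to 317 and 15.7 to 31.8 CPM after SNI, 6 of 6 called lower. No marker of these lists was at 0 in a mouse group. Of 5 T cell markers, 4 were called higher in B10.D2 sham, with sums of 0.802 to 1.55 CPM in BALB/c and 1.70 to 3.16 CPM in B10.D2. Of 4 B cell markers 0 were called in sham and 3 were called lower in B10.D2 after SNI, with sums of 4.65 to 14.02 CPM in BALB/c and 2.78 to 6.59 CPM in B10.D2. The part of these cell types in the strain differences was not tested. In these whole ganglia, fewer cells of a type and less RNA per cell cannot be told apart.

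The injury comparison asked which members change in the DRG after SNI. In BALB/c 1 of 10 members rose, Tlr2, and 9 were not called, where 9.69% of all features were called. In B10.D2 0 of 10 were called, where 4.58% of all features were. There 2 members, Tlr2 and Tlr8, had an unadjusted p under 0.05, and DESeq2 also called 0. Point estimates were above 0 for all 10 members in both strains, as were 50.7% (BALB/c) and 52% (B10.D2) of those over all features. The median log2 changes of the members were 0.28 (BALB/c) and 0.21 (B10.D2) against 0.003 and 0.008 over all features. The members were measured in the same libraries, so the 10 estimates are not separate observations.

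Tlr2 in BALB/c went from 1.35 (lowest), 2.18 (median) and 2.92 CPM (highest) in the sham libraries to 2.55, 3.61, 3.66 and 4.30 CPM after SNI. The groups overlapped at the lowest SNI library. The log2 change was 0.69 (SE 0.202, adjusted p = 0.0336), a 1.61-fold rise. In the 10 fits that left out a BALB/c library, the log2 change stayed between 0.589 and 0.808. The call was near the threshold and held in 3 of these fits. It was lost without sham replicates 51 (adjusted p = 0.0688), 56 (0.0786), 57 (0.0596) or 71 (0.053) and without SNI replicates 49 (0.0921), 64 (0.0735) or 65 (0.127). With BALB/c fitted alone its adjusted p was 0.0863.

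In B10.D2, Tlr2 had 2.58, 2.92, 3.02, 3.45 and 3.45 CPM in sham and 3.13, 4.14, 4.70, 5.43 and 5.92 CPM after SNI, again with overlap. The log2 change was 0.55 (SE 0.197, adjusted p = 0.129). Its partner genes Tlr1 and Tlr6 had log2 changes of 0.29 (SE 0.103, adjusted p = 0.0845) and 0.27 (SE 0.136, adjusted p = 0.233) in BALB/c, and of 0.13 and 0.22 in B10.D2. DESeq2 called Tlr1 in BALB/c (adjusted p = 0.0357). Tlr4 had log2 changes of 0.10 (SE 0.0849) and 0.04 (SE 0.086) in the 2 strains, and Tlr5 of 0.19 and 0.22.

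Among the endosomal receptors, Tlr8 had log2 changes of 0.49 (SE 0.261, adjusted p = 0.275) in BALB/c and 0.56 (SE 0.251, adjusted p = 0.257) in B10.D2. Tlr9, with 11 to 46 counts per mouse library, had 0.62 (SE 0.3) and 0.20 (SE 0.286). Tlr7 had 0.11 and 0.30, and Tlr3 0.10 and 0.06. Cd14 averaged 2.69 ± 0.656 CPM in the BALB/c sham libraries (SD, n = 6) and 3.41 ± 0.416 CPM after SNI (SD, n = 4), a log2 change of 0.34 (SE 0.185, adjusted p = 0.285), and in B10.D2 the change was 0.20 (SE 0.187, adjusted p = 0.665). Beside these changes, 5 of 10 macrophage markers were called higher after SNI in BALB/c and 1 of 10 in B10.D2. Of all features, 4.82% and 2.1% were called higher. The median log2 changes of the macrophage markers were close, 0.497 and 0.424. In each strain 7 of 10 had an unadjusted p under 0.05, and 0 of 10 were called in the interaction. The part of macrophage RNA in the change of Tlr2 was not tested.

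The difference between the strains in the injury change was tested as an interaction. In edgeR 0 of 10 members were called, where 0.0243% of all features were. No member had an unadjusted p under 0.05, and DESeq2 called 0 too. The interaction of Tlr2 was -0.14 on the log2 scale (SE 0.281) and that of Tlr1 -0.16 (SE 0.159). The widest was Tlr9, -0.42 (SE 0.415). Standard errors for the other members ran up to 0.363 (Tlr8).

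No member was called between female and male mice, where 0.243% of all features were. Tlr4 had a log2 difference of 0.19 (SE 0.0603, adjusted p = 0.193), Tlr1 0.22 (SE 0.078, adjusted p = 0.246) and Tlr8 0.41 (SE 0.182, adjusted p = 0.374), all with females higher. These 3 had an unadjusted p under 0.05, and DESeq2 called 0. Within groups, Tlr4 averaged 25.1 CPM in 2 female and 19.1 CPM in 2 male BALB/c SNI mice, and 17.0 CPM in 3 female and 13.2 CPM in 2 male B10.D2 SNI mice. In BALB/c sham the means were 20.3 CPM in females and 20.7 CPM in males, 3 of each. Tlr7 and Tlr8 lie on the X chromosome, and Tlr7 had a difference of 0.13 (SE 0.158, adjusted p = 0.811).

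In rat L5 DRG, 2 of the 5 members tested, Tlr7 and Tlr4, rose after SNT, and 3 were not called, where 27.4% of all 13690 features tested were called. Tlr7, a receptor for viral RNA in endosomes, had 4.70, 6.34, 8.87 and 11.7 CPM in sham and 12.0, 18.0, 19.2 and 22.4 CPM after SNT. The groups did not overlap, though the highest sham and lowest SNT libraries, both replicate 4, were close. The log2 change was 1.18 (SE 0.283, adjusted p = 0.0172), a 2.27-fold rise. It was called in all 8 fits that left out a library, with changes of 0.999 to 1.45. With a block on the run numbers that sham and SNT titles share, it was not called (adjusted p = 0.0564).

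Tlr4 had 22.1, 23.2, 23.3 and 27.7 CPM in the rat sham libraries and 28.9, 30.0, 30.1 and 33.8 CPM after SNT. These groups were also apart. The log2 change was 0.35 (SE 0.111, adjusted p = 0.0413), a 1.28-fold rise. The call was lost without sham replicates 1 (adjusted p = 0.0797), 2 (0.0817) or 3 (0.113), without SNT replicates 2 (0.0813), 3 (0.104) or 4 (0.0752), and with no filter on low counts (0.0546). It was also lost with a block on the run numbers that sham and SNT titles share.

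For the other 3 rat members the sham libraries spread widely. Tlr8 had 5.20, 6.40, 10.1 and 20.5 CPM in sham against 17.6, 21.2, 21.4 and 29.3 CPM after SNT, a log2 change of 1.09 (SE 0.38, adjusted p = 0.0576). Tlr9 had 3.49, 3.54, 6.55 and 7.04 CPM in sham against 6.82, 7.33, 9.37 and 11.6 CPM, a log2 change of 0.77 (SE 0.281, adjusted p = 0.0653). In both, sham replicate 4 reached into the SNT range. DESeq2 called both (adjusted p = 0.0139 for Tlr8 and 0.0278 for Tlr9), and with no filter on low counts Tlr8 was called (0.0454).

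Tlr2 in rat had 5.67, 6.63 and 6.96 CPM in 3 sham libraries and 19.0 CPM in sham replicate 4, above all 4 SNT libraries (10.7, 14.2, 14.8 and 15.6). Its log2 change was 0.53 (SE 0.357, adjusted p = 0.286). Sham replicate 4 was the highest sham library for all 5 members. On the first principal component of all features, which held 68% of the variance, sham replicate 4 and SNT replicate 1 lay between the groups. Without sham replicate 4, all 5 members were called, with log2 changes of 1.12 for Tlr2 (adjusted p = 0.00329), 0.44 for Tlr4 (0.0167), 1.45 for Tlr7 (0.00497), 1.65 for Tlr8 (0.00284) and 0.98 for Tlr9 (0.0272). That library was singled out after these values were seen. With all libraries 27.4% of all features were called, and the share in the fit without it is not given here. Without both libraries all 5 were called too, with changes of 0.46 (Tlr4) to 1.67 (Tlr8). Both had been picked for their place between the groups, so leaving them out widens the contrast by choice. More of all features were also called without them than with all libraries. The 5 calls are therefore no separate result about the members. Without SNT replicate 1 alone, Tlr9 was called (0.86, adjusted p = 0.049).

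The summed level of the macrophage markers was also highest among the sham libraries in replicate 4. Of the 10 markers, 9 were in the rat table and 4 of those were listed at 0 in every library (Aif1, Cd68, Csf1r, Mrc1). The sum over the rest was 367, 379, 667 and 1520 CPM in sham, with 1520 in replicate 4, and 1360, 1410, 1610 and 1950 CPM after SNT. Only Cx3cr1 of 5 tested was called higher (log2 change 1.35, SE 0.242, adjusted p = 0.0109), and the other 4 had changes of 0.20 to 1.152. The 5 T cell markers summed to 33.7 to 86.6 CPM in sham and 101 to 153 CPM after SNT. Of 7 DRG neuron markers tested, 3 were called lower after SNT. The part of these cell types in the rat changes was not tested.

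**Figure D5:**
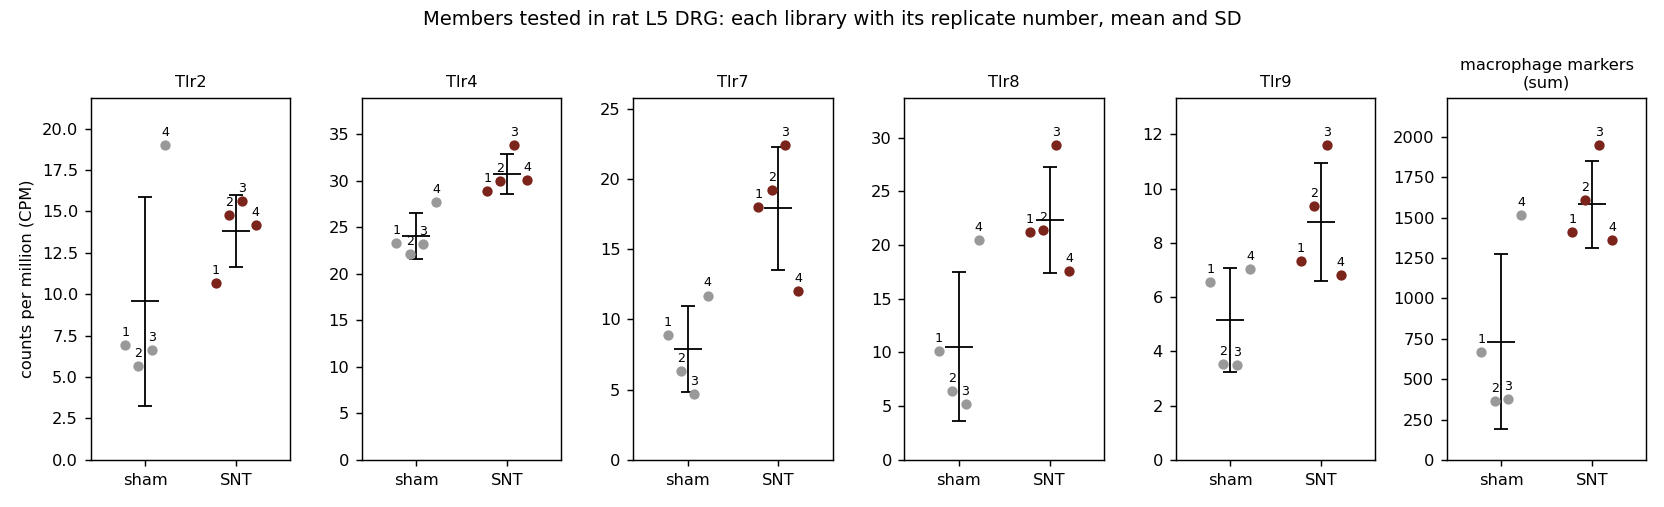
Levels of the 5 members with counts in rat and the summed macrophage markers, in CPM (y axes, from 0), for each sham and SNT library; numbers are replicate numbers and black bars give mean ± SD (n = 4 each). Sham replicate 4 is the highest sham library in every panel.

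Of 65 pathway genes tested in sham mice, 10 were higher and 2 lower in B10.D2, where 21.6% of all features were called. There, 3 of 5 co-receptor and accessory genes were higher in B10.D2 and 0 lower, and the lipid scavenger receptor Cd36 (-0.63, adjusted p = 0.131) and Lbp, which binds lipopolysaccharide (0.49, adjusted p = 0.0513), were not called. Ly86 (MD-1) had 17.2 at the lowest, 23.3 at the median and 28.1 CPM at the highest in BALB/c and ran from 78.3 to 124 CPM in B10.D2, a log2 difference of 2.14 (SE 0.132, adjusted p = 6.15e-11). Its partner Cd180, a TLR4-like receptor, was higher by 0.74 (SE 0.228, adjusted p = 0.0232). Ly96 (MD-2), the partner of TLR4, was higher by 0.65 (SE 0.167, adjusted p = 0.00647), with 1.10 ± 0.189 CPM in BALB/c and 1.73 ± 0.384 CPM in B10.D2. After SNI Ly86 (1.73, SE 0.149) and Ly96 (0.54, SE 0.186, adjusted p = 0.0451) were called higher again, and Cd180 had 0.34 (adjusted p = 0.375).

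Of the 5 adaptors, 1 was called in each strain comparison. Tirap, which brings MyD88 to TLR2 and TLR4 at the surface, was lower in B10.D2 in sham (-0.32, SE 0.0798, adjusted p = 0.0048) and after SNI (-0.27, SE 0.0873, adjusted p = 0.0328). Myd88 itself had 0.24 (adjusted p = 0.0811) and 0.21 (0.171), Ticam1 0.07 and 0.02, and Ticam2 (TRAM) 0.66 (adjusted p = 0.0843) and 0.48 (0.27). Unc93b1 was higher in B10.D2 sham (0.38, SE 0.116, adjusted p = 0.0228) and Slc15a4, an endolysosomal transporter, lower (-0.30, SE 0.0511, adjusted p = 0.000129). Of the inhibitors, 1 of 9 was higher, Tnip1 (0.74, SE 0.0736, adjusted p = 1.26e-07). Of 16 kinases and ubiquitin ligases 2 were higher, of 8 transcription factors 2 (Irf5 0.44, Irf3 0.20), of 7 reported endogenous ligands 1 (Hmgb1 0.60, adjusted p = 4.91e-10), and of 7 target genes tested and 3 other Toll-like receptors (Tlr11, Tlr12, Tlr13) 0. After SNI S100a8 and S100a9, ligands of TLR4 and also in the neutrophil list, were lower in B10.D2 (-2.43 and -2.52, adjusted p = 0.00289 and 0.00194).

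After SNI, 6 of the 65 pathway genes tested were called in BALB/c (9.23%, against 9.69% of all features) and 5 after SNI in B10.D2 (7.69%, against 4.58%). Unc93b1 rose by 0.43 on the log2 scale (SE 0.123, adjusted p = 0.0302), Rela, an NF-kB subunit, by 0.32 (SE 0.0571, adjusted p = 0.000803), and the inhibitor Irak3 by 0.37 (adjusted p = 0.0379). The kinase adaptor Tab3 fell by 0.30 (adjusted p = 0.00126). Tnc, the matrix protein tenascin-C and a reported TLR4 ligand, rose most, by 2.07 (SE 0.257, adjusted p = 1.76e-05) in BALB/c and by 2.48 (SE 0.272, adjusted p = 1.24e-05) in B10.D2. Hmgb1 also rose in BALB/c (0.15, adjusted p = 0.0435). In B10.D2 the called genes beside Tnc were Rela (0.23, adjusted p = 0.0233), Tab2 (0.15, adjusted p = 0.0388) and the targets Cxcl10 (1.80, SE 0.359, adjusted p = 0.00443) and Il1b (1.24, SE 0.332, adjusted p = 0.0345). Myd88 had 0.26 (adjusted p = 0.11) and 0.23 (0.219) in the 2 strains, and Ly96, Tirap, Ticam1, Ticam2 and Cd180 were not called in either.

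In rat, 14 of the 44 pathway genes tested were higher after SNT and 1 was lower, where 12.3% of all features were called higher. Of 7 transcription factors tested 6 were higher and Irf3 (0.02) was not called, with Irf5 at 1.03 (SE 0.228, adjusted p = 0.0142), Rela at 0.93 (SE 0.14, adjusted p = 0.0104), Nfkb2 at 0.85 and Irf7 at 0.79. Of 7 inhibitors tested 4 were higher and 3 were not called. Those called were Il1rl1 at 1.32, Irak3 at 1.01, Tnfaip3 at 0.82 and Nfkbia at 0.62. The adaptor Myd88 rose by 0.62 (SE 0.177, adjusted p = 0.0303), with 25.8 ± 7.06 CPM in sham and 39.5 ± 4.17 CPM after SNT (SD, n = 4 each). Of 12 kinases and ubiquitin ligases 3 rose (Irak2 0.60, Traf6 0.47, Tab2 0.36) and Tbk1, the kinase of the interferon arm, fell by 0.46 (adjusted p = 0.0141). Unc93b1 (0.64, adjusted p = 0.0982), Tirap (0.37, adjusted p = 0.184) and Cd180 (1.05, adjusted p = 0.0934) were not called, nor was any of 6 ligands, 3 co-receptor genes, 2 targets or 2 other Toll-like receptors tested.

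Likeness across the 20 mouse libraries was described as the mean absolute difference of centred log2 CPM, over 14412 genes of at least 1 CPM. The gene closest to Tlr6 was Tlr1 (0.206), and Tlr6 was the second closest to Tlr1, behind Abhd1 (0.198). Tlr2 was closest to Cd53 (0.140), Fcgr3 (0.144) and Tyrobp (0.145), which are genes of leukocytes. Tlr8 was closest to Tlr2 (0.165), then to Ptprc and Cd53 (both 0.179), which mark leukocytes. Tlr7 came next to Mrc1 (0.174), a macrophage marker, to Egfr (0.178) and to Tnfaip8l2 (0.184). The low-count Tlr9 had larger distances, to Wdfy4 (0.251) and Parvg (0.273). Tlr4 lay nearest to Cryz (0.0772), Ppwd1 (0.105) and Zfp65 (0.109), Tlr3 to Zfp658 (0.071), Fndc3a and Ing3 (both 0.0764), Tlr5 to Trp53inp2 (0.116), Arhgap33 (0.125) and Crmp1 (0.130), and Cd14 to Flna (0.139), Nrm (0.155) and Spin4 (0.161). The third genes for Tlr1 and Tlr6 were Baiap2l1 (0.223) and Abhd1 (0.228), and Pyroxd2 (0.223) came second for Tlr6. The libraries share depth, strain and surgery, so these distances hold all 3.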

How the data were processed

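Counts of read pairs per gene were used for 20 mouse and 8 rat DRG libraries. Per the study's methods, the authors mapped paired 100-base reads with STAR to mm10 or rn6 and used uniquely mapped pairs. They made the deposited counts with HTSeq (intersection-nonempty, a rule for reads that overlap several annotated genes), with no normalization. Versions are not given in the sources used here. The other 2 labelled mouse libraries were not analysed here. The deposited tables of the authors' own comparisons supplied gene symbols only. Members, lists and tests were chosen with earlier results of these data known. Each library's counts were fitted with edgeR 4.0.16 (R 4.3.3; TMM factors, filterByExpr, quasi-likelihood F test, Benjamini-Hochberg adjustment over all features tested): mouse with sex and strain by condition, rat with condition. Standard errors came from the F statistic. The fit was tested on simulated counts, with the same spread set for every feature in both species. That does not test it at the spread of these libraries. Alternatives were DESeq2 1.42.0, median-ratio factors, no filter or at least 10 counts in every library, no sex term, each strain alone, sham libraries alone for sex, a run block in rat, and each library left out. Positions and exon lengths came from GENCODE M21 (49326 of 49585 mouse gene IDs matched, all 10 members among them), promoters from RefSeq. A count of 0 in a library allows up to 3 counts; intervals and floors cover counting error only. Members were always named; pathway genes were named when called, at most 4 a list by size, with Ly96, Myd88, Ticam1, Ticam2, Tirap, Unc93b1 and Cd180 always considered. Some genes that these rules would name are not reported here.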

Additional observations from a re-analysis of the deposited data

Results flagged for a closer look

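Of 50 sets of a member in a group of 4 to 10 libraries with counts, 1 held a library far from the others, where chance gives about 1 in 20. Tlr2 in rat sham replicate 4 was at 19.0 CPM, and the next sham library was at 6.96 CPM and the lowest at 5.67 CPM. The gap was 0.903 of the group's range. In the same library the macrophage markers with counts summed to 1520 CPM, against 367 to 667 CPM in the other sham libraries. Their part in the Tlr2 value was not tested.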

How the results depend on the processing

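Tlr1, Tlr4 and Tlr6 were called lower in B10.D2 under every alternative run, in sham and after SNI. Members called after SNI in BALB/c numbered 1, but 2 with DESeq2, 0 with the strain fitted alone and 0 to 1 when each library was left out. In rat 2 were called, but 4 with DESeq2 and 1 to 5 when each library was left out. Without the 2 libraries, which were picked because they lay between the groups, 5 were called. In the rat titles, sham and SNT libraries share run numbers. With a replicate block on them in edgeR, 0 members were called (Tlr7 adjusted p = 0.0564). Same-run deviations correlated from -0.238 to 0.0549, and no sham library matched its own run best. So few correlations cannot decide whether the libraries of a run share an effect. In mouse no replicate number was shared between groups. Signs of uncalled values turned: in sham libraries alone the female minus male difference was -0.063 for Tlr2 and -0.08 for Tlr6. Leaving out 1 library each gave, for the interaction, -0.11 to 0.00 (Tlr3), -0.11 to 0.017 (Tlr4), -0.053 to 0.114 (Tlr5), -0.14 to 0.04 (Tlr6) and -0.11 to 0.21 (Tlr8); for the strain difference -0.186 to 0.034 (Cd14, sham), -0.008 to 0.08 (Tlr3, SNI) and -0.23 to 0.20 (Tlr9, SNI); for injury -0.10 to 0.26 (Tlr7, BALB/c), -0.008 to 0.09 (Tlr4, B10.D2) and -0.087 to 0.343 (Tlr9, B10.D2); and for sex -0.052 to 0.066 (Cd14). Of 1190 alternative values of single members, 1113 kept direction and side of the threshold. Over all features, counts moved by over 1.5 times for sex (60 called; 246 with DESeq2, 222 with no filter, 19 in sham libraries alone, 35 to 159 with a library left out), for the interaction (6; 10 with DESeq2, 3 with 10 counts in every library, 3 to 6), for SNI in B10.D2 (1130; 665 to 1214 with a library left out, lowest without SNI replicate 90) and in rat (3753; 6100 without the 2 libraries, 1483 to 5041 with a library left out, lowest without sham replicate 3). The causes were not tested. With 49 to 83 counts a library for Tlr1 and 36 to 43 for Tlr6 in B10.D2 sham, and 11 to 46 for Tlr9, their precision is limited by depth.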
